A study of Arabidopsis thaliana with 18 samples.

Results

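The ERF and DREB transcription factor genes of Arabidopsis thaliana were taken as the nuclear protein-coding genes whose product name in the TAIR10 annotation contains the phrase for the Integrase-type DNA-binding superfamily, for ethylene response factors or ethylene responsive element binding factors, or the word DREB, without 6 genes of the APETALA2 group. This gave 96 of 27444 protein-coding genes, 81 of which carry the product name Integrase-type DNA-binding superfamily protein. The binding of FRUITFULL (FUL), a MADS-domain factor of the inflorescence meristem and the fruit, to genomic DNA was measured by DAP-seq, in which fragments of purified DNA are recovered with a protein made in vitro and sequenced. The 18 samples fall into 6 conditions of 3 replicates: FUL-SOC1, FUL-AG-SEP3, FUL without a partner, FUL-AG, FUL-SEP3 and the input. The proteins were produced with the TnT SP6 system and only FUL carried the 3xFLAG tag, so that every fragment was recovered through FUL. In the authors' gel-shift assays, FUL, AG and SEP3 combined formed several complexes, so a peak list belongs to a mixture and not to a single complex. All mixtures received 400 ng of a library made from leaf DNA of 2-week-old Col-0 seedlings, and the libraries were amplified with 20 cycles. The DNA is free of chromatin proteins and no cells were measured, so no marker of a tissue or cell type applies.

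ERF and DREB proteins are plant transcription factors that bind DNA through an AP2 domain. ERF proteins are best known for binding the GCC-box of ethylene-responsive defence genes, and DREB proteins for binding the dehydration-responsive element of genes induced by cold and drought. Some members act in meristems and flowers, such as PUCHI in floral meristem identity and ESR1 (also called DORNROSCHEN) in organ initiation, which is where FUL and its partners SOC1, AG and SEP3 are known to act.

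The curated gene notes placed 43 of the 96 genes in the DREB branch (subgroups A-1 to A-6) and 41 in the ERF branch (B-1 to B-6). For the other 12 the notes name no ERF or DREB subgroup. Of these 12, 10 encode AP2-domain proteins, among them BBM, PLT1, PLT2, ANT, WRI1 and WRI4, and the remaining 2, DRIP1 and DRIP2, are RING-type ubiquitin ligases that target DREB2A and are no transcription factors of this family. Leaving out DRIP1 and DRIP2, a choice made after seeing the data, lowered the count of genes with a FUL-SOC1 peak by 1 gene, DRIP1. The count of genes with a peak in any list fell from 32 to 31, and the counts of the other single lists stayed the same.

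Peaks were counted for a gene when they overlapped it or the 3 kb on either side. The authors combined the replicates before peak calling, so each condition gives 1 peak list and no spread between replicates, and no test was made. All 5 lists were called against the same input. A peak of 1 or more lists was found at 32 of the 96 genes (33.3%, 95% Wilson interval 24.7 to 43.2%), compared with 43.9% of all protein-coding genes. FUL-SOC1 peaks were found at 17 genes (17.7%, interval 11.4 to 26.5%) against 28.7% of all genes, and this was the only single list whose interval did not reach the share of all genes. FUL-AG-SEP3 peaks were found at 22 genes (22.9%, interval 15.6 to 32.3%; all genes 27.1%) and FUL-AG peaks at 12 genes (12.5%, interval 7.30 to 20.6%; all genes 18.1%). FUL peaks were found at 19 genes (19.8%, interval 13.1 to 28.9%; all genes 17.0%) and FUL-SEP3 peaks at 11 genes (11.5%, interval 6.52 to 19.4%; all genes 9.22%). With 3 kb flanks the order of the lists thus differed between the 96 genes and the genome. FUL-SOC1 marked the largest share of all genes, whereas FUL-AG-SEP3 and FUL marked the largest shares of the 96 genes, although the intervals of these 3 lists overlapped within the family. FUL-SOC1 marked more family members than FUL did with 5 kb flanks (31 against 27) and with the nearest transcription start (14 against 11). It marked fewer with the other windows and thresholds tried. Outside the selection by product name, 13 of 25 other AP2/ERF genes had a FUL-SOC1 peak, 11 a FUL-AG-SEP3 peak and 10 a FUL peak. Those 25 genes were listed by name with earlier results known.

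**Figure D1:**
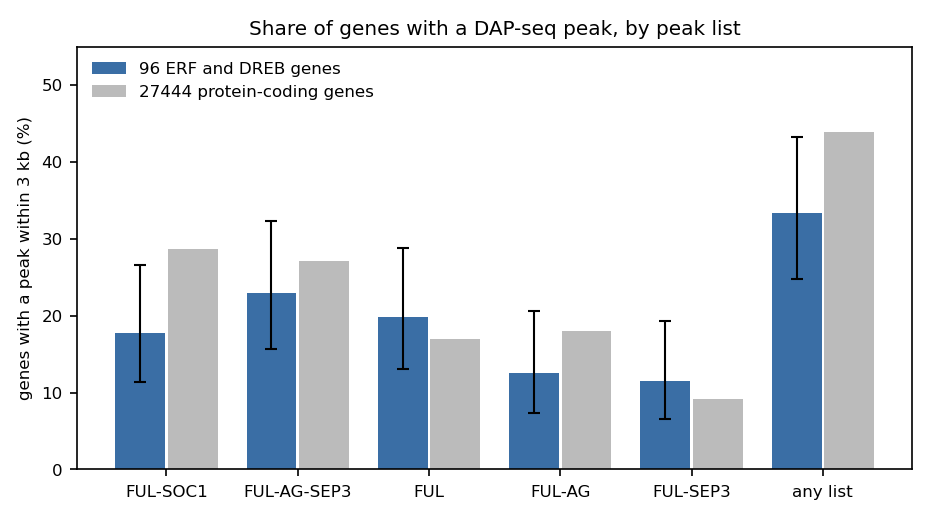
Share of genes (%, vertical axis) with a peak in the gene or within 3 kb, for each peak list and for any list (horizontal axis). Blue bars are the 96 ERF and DREB genes with 95% Wilson intervals and grey bars all 27444 protein-coding genes; the FUL-SOC1 interval (11.4 to 26.5%) lies below the grey bar at 28.7%.

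ERF and DREB genes are short, with a median length of 1266.5 bp against 2078 bp for all protein-coding genes, and a short gene has a smaller window. Counted per length of window, FUL-SOC1 had 2.44 summits per 100 kb around the family members and 4.06 around all genes. The density of FUL-AG-SEP3 summits was 3.44 around members and 3.76 around all genes, that of FUL summits 2.44 and 2.21, that of FUL-AG summits 1.86 and 2.36, and that of FUL-SEP3 summits 1.58 and 1.17. The lower value for FUL-SOC1 was therefore also seen per length of DNA. It was not seen when each peak was given only to the protein-coding gene with the nearest transcription start. FUL-SOC1 peaks were then found at 14 family members (14.6%, interval 8.89 to 23.0%) against 13.6% of all genes, and FUL-AG-SEP3 peaks at 17 members (17.7%, interval 11.4 to 26.5%) against 12.6%. Peaks of FUL were then given to 11 members (11.5%; all genes 7.66%), of FUL-AG to 10 (10.4%; 8.14%), of FUL-SEP3 to 7 (7.29%; 4.12%) and of any list to 24 (25.0%; 21.9%). These 6 shares were higher in the family than over all genes, and the intervals contained the shares of all genes, whereas peaks in all 5 lists were then found at 1 member (1.04%, against 1.70% of all genes). Whether the 96 selected genes had fewer FUL-SOC1 peaks than other genes thus depended on how peaks were assigned.

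Of the 32 genes with a peak, 9 had peaks in 1 list, 7 in 2 lists, 9 in 3 lists, 4 in 4 lists and 3 in all 5 lists (3.13% of the family; 4.20% of all genes). FUL-SOC1 peaks without a FUL-AG-SEP3 peak were found at 3 genes (3.13%, interval 1.07 to 8.79%; all genes 12.0%), namely DRIP1, AT3G60490 and AT1G36060. FUL-AG-SEP3 peaks without a FUL-SOC1 peak were found at 8 genes (8.33%; all genes 10.4%), namely AT1G12630, AT4G31060, ERF4, PUCHI, ERF73, ERF-1, CRF11 and PLT1. Peaks of both lists were found at 14 genes (14.6%; all genes 16.7%). FUL alone, with no other list, marked 5 genes (5.21%, interval 2.24 to 11.6%; all genes 2.62%), which were ESR1, DREB26, AT1G22810, AT1G44830 and CRF8. Of the other lists, FUL-SOC1 alone marked 2 genes, DRIP1 and AT1G36060 (all genes 9.46%), and FUL-AG alone 1 gene, SHN1 (all genes 1.25%). FUL-SEP3 alone marked 1 gene, AT5G21960 (all genes 0.313%), and FUL-AG-SEP3 alone none (all genes 4.10%).

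**Figure D2:**
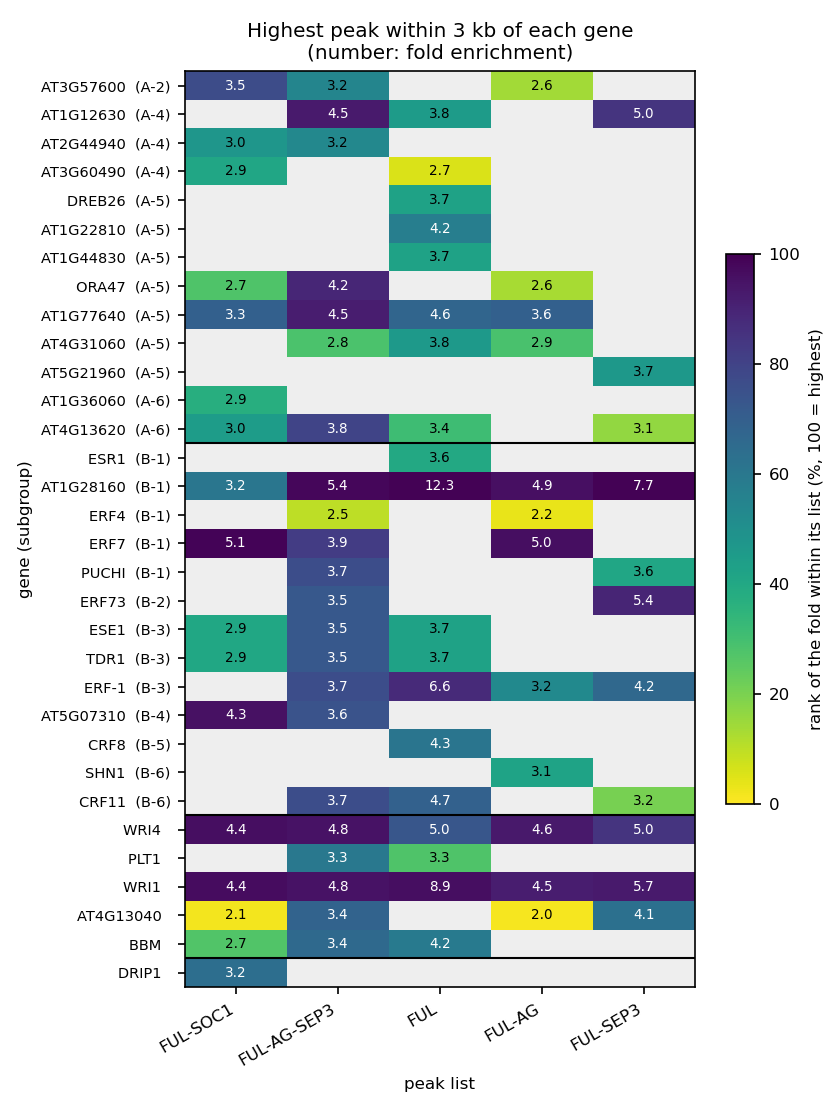
The 32 genes with a peak (rows, with the subgroup of the gene notes in brackets) and the 5 peak lists (columns). Numbers are the fold enrichment of the highest peak of the gene in that list, colour gives its rank within the list (% of peaks, 100 for the highest), and grey cells have no peak within 3 kb; AT1G28160, WRI4 and WRI1 have a value in every column.

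The peaks of all lists at the 32 genes merged into 39 regions. The consensus site of MADS-domain factors is the CArG-box, a 10 bp site with CC at one end, GG at the other and a run of A or T between them. An exact box within 100 bp of the summit was found in 9 regions, and the best site had 1 mismatch in 22, 2 mismatches in 7 and 3 mismatches in 1. The 9 exact sites are shown because they match the full consensus within 100 bp of a summit. The site of AT1G28160 is shown because it lies under the peak with the highest fold of the family. Binding to the printed sites themselves was not measured. Each run is 30 bp of the + strand of the TAIR10.1 assembly of RefSeq, 5′ to 3′, with the 10 bases of the box in capitals.
ESR1: accctagaaaCCAAAAATGGaaaaagcctt
DREB26: aatttattttCCTTTTTTGGgaaagaatcc
AT1G22810: actttctttgCCTTTTTTGGttacaaattg
CRF8: aatctttttaCCATTTATGGatcaacacat
ERF7: aaagtagataCCAAAATTGGgaaaactctc
ERF4: acacatgttaCCAAAAATGGggacaggtgg
ERF73: tagttttgaaCCATATAAGGaattattgtc
SHN1: tcagtatggcCCAATAAAGGcccattttga
WRI1 upstream: acactgaagaCCTAATTTGGtataatacag
AT1G28160: taccatgttgCCAAATATAGtattcttttc
The runs lie at chr1:4429775-4429804 (ESR1), chr1:7698219-7698248 (DREB26), chr1:8075686-8075715 (AT1G22810), chr1:26823606-26823635 (CRF8), chr3:7085026-7085055 (ERF7), chr3:5125385-5125414 (ERF4), chr1:27240032-27240061 (ERF73), chr1:5281833-5281862 (SHN1), chr3:20114066-20114095 (WRI1) and chr1:9841115-9841144 (AT1G28160). ESR1 and ERF4 hold the same 10 bases in the box, and so do DREB26 and AT1G22810, while the bases beside the boxes differ. The first 4 sites belong to regions of the FUL list alone. The sites of ERF7 and of the region upstream of WRI1 lie in regions shared by FUL-SOC1, FUL-AG-SEP3 and FUL-AG, that of ERF4 in a region of FUL-AG-SEP3 and FUL-AG, that of ERF73 in a region of FUL-AG-SEP3 and FUL-SEP3, and that of SHN1 in a region of FUL-AG alone.

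Within the DREB branch, 13 of 43 genes had a peak (30.2%, interval 18.6 to 45.1%), against 43.9% of all genes. FUL-SOC1 peaks were found at 7 of these genes (16.3% of the branch; all genes 28.7%), FUL-AG-SEP3 peaks at 7 (16.3%; 27.1%), FUL peaks at 8 (18.6%; 17.0%), FUL-AG peaks at 4 (9.30%; 18.1%) and FUL-SEP3 peaks at 3 (6.98%; 9.22%). Of these 13 genes, 7 came from subgroup A-5, small DREB proteins that include ORA47, a regulator of jasmonate synthesis. In A-5, 7 of 11 genes had a peak (63.6%, interval 35.4 to 84.8%) and 5 of 11 had a FUL peak (45.5%; all genes 17.0%). In A-4, the subgroup of TINY and HARDY, 3 of 15 had a peak (20.0%, interval 7.05 to 45.2%). The intervals of the 2 subgroups overlap, both contain the 43.9% of all genes, and the difference was not tested. A-5 had the highest share with a peak of all the subgroups and was not singled out in advance. No interval was computed for its share with a FUL peak, and that share was not tested against all genes. No peak was found at the A-1 genes DDF1 and DDF2, relatives of the CBF cold regulators, or at ABI4, the A-3 gene of abscisic acid signalling, whose nearest peak was 4206 bp away.

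AT1G22810, DREB26 and AT1G44830, all of A-5, had a peak of FUL alone. The fold enrichment, which is the pileup of the peak over its local background, was 4.18 at AT1G22810, with 42.7% of the FUL peaks higher. The summit there lay 679 bp upstream of the AT1G22810 start and 280 bp from the start of AT1G22830, which was nearer. The fold was 3.68 at DREB26, in a peak that began 307 bp beyond the gene end. It was also 3.68 at AT1G44830, where the summit lay in the 5′ UTR, 82 bp after the start. All were thus of middle height in the FUL list.

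The A-5 gene AT1G77640 had peaks in 4 lists at one place, with summits 2422 to 2462 bp upstream of its start and an intergenic position. The folds were 4.60 for FUL, 4.45 for FUL-AG-SEP3, 3.56 for FUL-AG and 3.33 for FUL-SOC1, and FUL-SEP3 had no peak there. Only the FUL-AG-SEP3 peak stood near the top of its list, with 8.01% of the peaks higher. At ORA47, closer to the start, FUL-AG-SEP3 had a fold of 4.24 with the summit at 471 bp upstream, FUL-AG 2.6 at 420 bp and FUL-SOC1 2.74 at 343 bp, and neither FUL nor FUL-SEP3 had a peak. AT4G31060 had folds of 3.80 for FUL, 2.89 for FUL-AG and 2.81 for FUL-AG-SEP3, and its summits lay in an intron of the neighbouring gene AT4G31050. At AT5G21960 the FUL-SEP3 list alone had a peak, 17 bp beyond the gene end, with a fold of 3.69.

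Among the remaining DREB genes, AT1G12630 (A-4) had the highest FUL-AG-SEP3 fold of the genes without a FUL-SOC1 peak. Its folds were 4.51 for FUL-AG-SEP3, with 7.29% of the list higher, 4.98 for FUL-SEP3 and 3.77 for FUL, all with the summit 1667 to 1680 bp from the start, downstream of the gene. AT4G13620 (A-6) had peaks in 4 lists at 2 places. In its coding exon, 154 to 168 bp after the start, the folds were 3.40 for FUL, 3.23 for FUL-AG-SEP3 and 2.99 for FUL-SOC1, and downstream, in the 3′ UTR of AT4G13630, they were 3.76 for FUL-AG-SEP3 and 3.09 for FUL-SEP3. FUL-SOC1 peaks in the absence of a FUL-AG-SEP3 peak had folds of 2.93 at AT3G60490 (A-4) and 2.88 at AT1G36060 (A-6). Of the FUL-SOC1 list, 59.2% and 62.9% were higher, so both peaks were of middle height. AT3G57600 (A-2) had folds of 3.50 for FUL-SOC1, 3.22 for FUL-AG-SEP3 and 2.61 for FUL-AG. The summits lay downstream of the gene, in the 3′ UTR of AT3G57610. AT2G44940 (A-4) had a FUL-AG-SEP3 peak upstream (3.18) and a FUL-SOC1 peak downstream (3.01), so that the peaks of the 2 lists did not overlap.

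In the ERF branch, 13 of 41 genes had a peak (31.7%, interval 19.6 to 47.0%), against 43.9% of all genes. FUL-AG-SEP3 peaks were found at 10 of these genes (24.4% of the branch; all genes 27.1%) and FUL peaks at 7 (17.1%; 17.0%). FUL-SOC1, FUL-AG and FUL-SEP3 peaks were found at 5 genes each (12.2%; all genes 28.7, 18.1 and 9.22%). In B-1, the subgroup with the repressors ERF4 and ERF7 and the meristem genes ESR1, LEP and PUCHI, 5 of 10 genes had a peak and 4 of them a FUL-AG-SEP3 peak. In B-3, the subgroup of the ethylene and pathogen responsive ERF1, ERF-1, ERF2, ERF5 and ERF6, 3 of 12 genes had a peak. The intervals of both, 23.7 to 76.3% and 8.89 to 53.2%, contain the 43.9% of all genes with a peak.

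The highest fold of the family, which was also the highest rank within a list, was found at the B-1 gene AT1G28160. The fold was 12.3 for FUL, with 0.425% of the list higher, 7.75 for FUL-SEP3 (0.647% higher), 5.41 for FUL-AG-SEP3 (1.77% higher), 4.94 for FUL-AG (4.23% higher) and 3.19 for FUL-SOC1 (39.4% higher). The peak thus stood near the top of 4 lists and in the middle of the FUL-SOC1 list. Folds of different lists are compared by their rank within the list, because the number of reads behind each list is not in the files. The summits lay 1817 to 1873 bp after the start of AT1G28160 in peaks at least 824 bp beyond its end, and the nearest transcription start was that of the sulfotransferase gene SOT7, 80 to 136 bp away. No exact CArG-box was present, and the printed site has 1 mismatch.

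ERF7, a repressor of abscisic acid responses, had the highest FUL-SOC1 fold of the family. Its folds were 5.12 for FUL-SOC1 (0.787% of the list higher), 5.0 for FUL-AG (3.77% higher) and 3.88 for FUL-AG-SEP3 (17.6% higher), with no FUL and no FUL-SEP3 peak. The summits of the 3 lists lay within 5 bp of each other in the 3′ UTR, 1928 to 1933 bp after the start. ERF4, another repressor, had only low peaks, of 2.46 for FUL-AG-SEP3 and 2.21 for FUL-AG, although its region holds an exact box.

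ESR1 had a FUL peak with a fold of 3.63 and the summit 25 bp after the transcription start, in the 5′ UTR, and 60.4% of the FUL list was higher. Its exact box at chr1:4429785-4429794 covers the start of the coding sequence at position 4429791. PUCHI had peaks of the lists with SEP3 only, with folds of 3.66 for FUL-AG-SEP3 at 1682 bp upstream and 3.59 for FUL-SEP3 at 1726 bp upstream. Of the other floral and meristem genes of the family, LEP and ANT had no peak, with the nearest one 5687 bp and 6581 bp away, and ESR2, AIL6 and AIL7 have product names that the selection does not take.

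**Figure D3:**
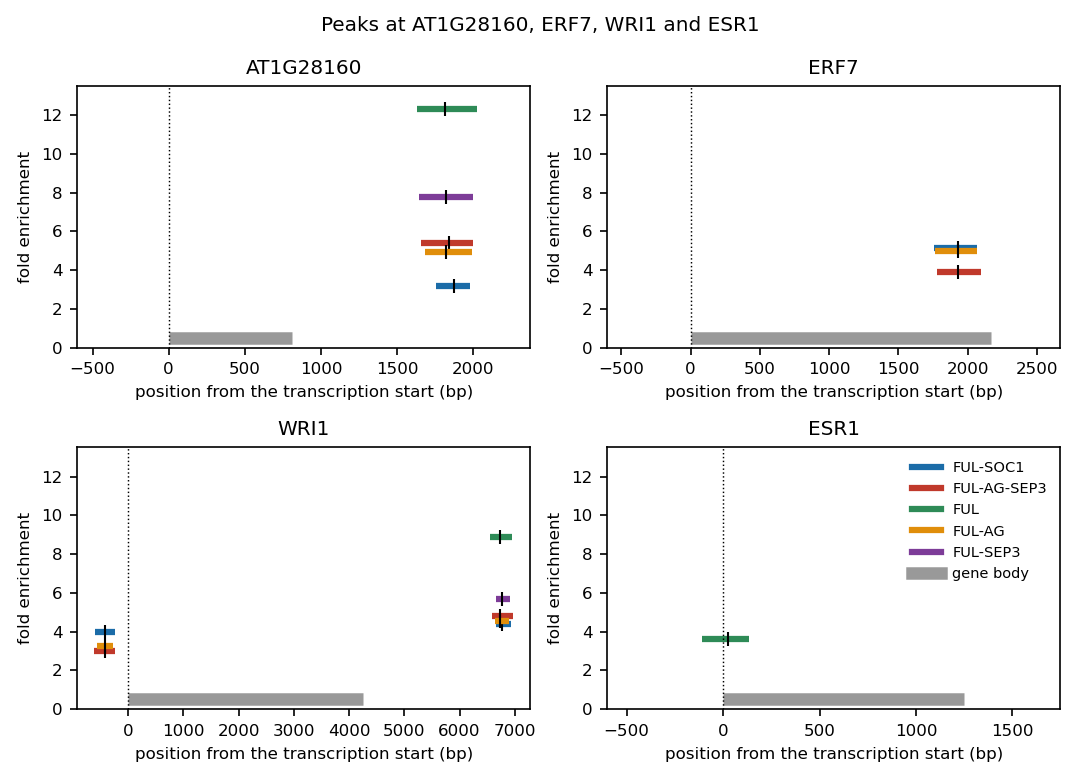
Peaks at AT1G28160, ERF7, WRI1 and ESR1. Coloured bars span each peak by its distance from the transcription start of the gene (bp, horizontal axis, gene reads left to right) at the height of its fold enrichment (vertical axis), black ticks are summits and grey bars gene bodies; FUL reaches 12.3 downstream of AT1G28160, and ESR1 has a FUL peak over its start and no other.

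The ethylene-responsive activator gene ERF-1 had peaks in every list other than FUL-SOC1. The folds were 6.55 for FUL (12.1% of the list higher), 4.19 for FUL-SEP3, 3.67 for FUL-AG-SEP3 and 3.25 for FUL-AG, at summits 1627 to 1653 bp from the start, where the non-coding gene AT4G02985 is annotated. No peak was found at ERF1, ERF2, ERF5 or ERF6. ESE1 and TDR1, which neighbour each other, shared 1 region, with folds of 3.68 for FUL, 3.55 for FUL-AG-SEP3 and 2.92 for FUL-SOC1, and its summits lay 1217 to 1276 bp upstream of TDR1 and beyond the end of ESE1.

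Other ERF genes had peaks of few lists. ERF73, a hypoxia-response gene, had folds of 5.37 for FUL-SEP3 (10.2% of the list higher) and 3.55 for FUL-AG-SEP3, but the summits lay 131 to 136 bp from the start of its neighbour AT1G72350. AT5G07310, also named ERF115, which acts in the renewal of root stem cells, had folds of 4.31 for FUL-SOC1 (4.35% higher) and 3.60 for FUL-AG-SEP3 at 1294 to 1326 bp upstream, and a second FUL-SOC1 peak of 2.74 at 786 bp upstream. Its 2 regions held no site with fewer than 2 mismatches. CRF11 had folds of 4.69 for FUL, 3.66 for FUL-AG-SEP3 and 3.19 for FUL-SEP3 at 650 to 656 bp upstream. CRF8, with a fold of 4.32 in its 3′ UTR, was the highest of the 5 genes of FUL alone. The summit lay 1106 bp after the CRF8 start and 941 bp from the nearer start of AT1G71140. SHN1, a regulator of cuticular wax, had a FUL-AG peak of 3.08 at 1384 bp upstream, and SHN2 and SHN3 had none.

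Of the 10 AP2-domain genes without a subgroup, 5 had a peak (50%, interval 23.7 to 76.3%), which contains the 43.9% of all genes, and 2 of them were in all 5 lists (all genes 4.20%). WRI4, a regulator of wax synthesis, had its peaks in an intron, 2667 to 2797 bp after the start, with folds of 4.98 for FUL-SEP3, 4.96 for FUL, 4.77 for FUL-AG-SEP3 (4.89% of the list higher), 4.62 for FUL-AG (6.94% higher) and 4.36 for FUL-SOC1 (3.81% higher). In rank it was highest in the FUL-SOC1 list, and 26.8% of the FUL list was higher. WRI1, a regulator of seed oil synthesis, had 2 regions. At 416 to 421 bp upstream of its start the folds were 3.95 for FUL-SOC1 (8.88% higher), 3.24 for FUL-AG and 3.02 for FUL-AG-SEP3 (56.9% higher). The other region, with folds of 8.87 for FUL, 5.67 for FUL-SEP3, 4.81 for FUL-AG-SEP3, 4.55 for FUL-AG and 4.40 for FUL-SOC1, lay at least 2299 bp beyond the end of WRI1, in the 5′ UTR of the floral organ identity gene AP3, 49 to 94 bp after the AP3 start. WRI1 thus had peaks in all lists only through the region at AP3.

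AT4G13040 had a low intron region (FUL-AG-SEP3 3.23, FUL-SOC1 2.08, FUL-AG 2.04) and a downstream region (FUL-SEP3 4.08, FUL-AG-SEP3 3.44). The downstream summits were nearest the start of AT4G13050, 762 to 765 bp upstream of it. The embryo regulator BBM had folds of 4.23 for FUL and 3.39 for FUL-AG-SEP3 at 569 to 572 bp upstream, and a separate FUL-SOC1 peak of 2.74 at 1961 bp upstream. At PLT1, a root stem cell gene, FUL-AG-SEP3 (3.28) and FUL (3.34) had separate peaks downstream of the gene. Both summits were nearest the start of AT3G20850, 144 bp upstream of it for FUL-AG-SEP3 and in a coding exon of that gene for FUL. PLT2 had no peak, its nearest one lying 3088 bp away. The ubiquitin ligase gene DRIP1 had a FUL-SOC1 peak of 3.24, in an intron of the neighbouring GAUT6, and DRIP2 had none.

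By position, 18 of the 40 pairs of a region and a gene were upstream, 7 inside and 15 downstream of the family member. The summit was intergenic in 24 of the 39 regions, in an intron in 5, in a 3′ UTR in 4, in a 5′ UTR in 3, in a coding exon in 2 and in a non-coding exon in 1. In 28 regions the nearest start among protein-coding genes was that of a family member. Only 6 regions lay within 1000 bp upstream of a member, and 3 lay within 200 bp of its start, which were those of ESR1, AT1G44830 and the coding exon of AT4G13620. The peak closest inside the limit was that of FUL at AT3G60490, 2948 bp away at a fold of 2.67, followed by FUL-SOC1 at DRIP1 (2886 bp, 3.24) and FUL-AG at ERF4 (2715 bp, 2.21). Just outside lay peaks of DEAR2, at 3031 bp for FUL-AG-SEP3 with a fold of 5.55 and at 3037 bp for FUL-AG with a fold of 7.30, and a FUL-SOC1 peak 3080 bp from WRI4 with a fold of 2.13.

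**Figure D4:**
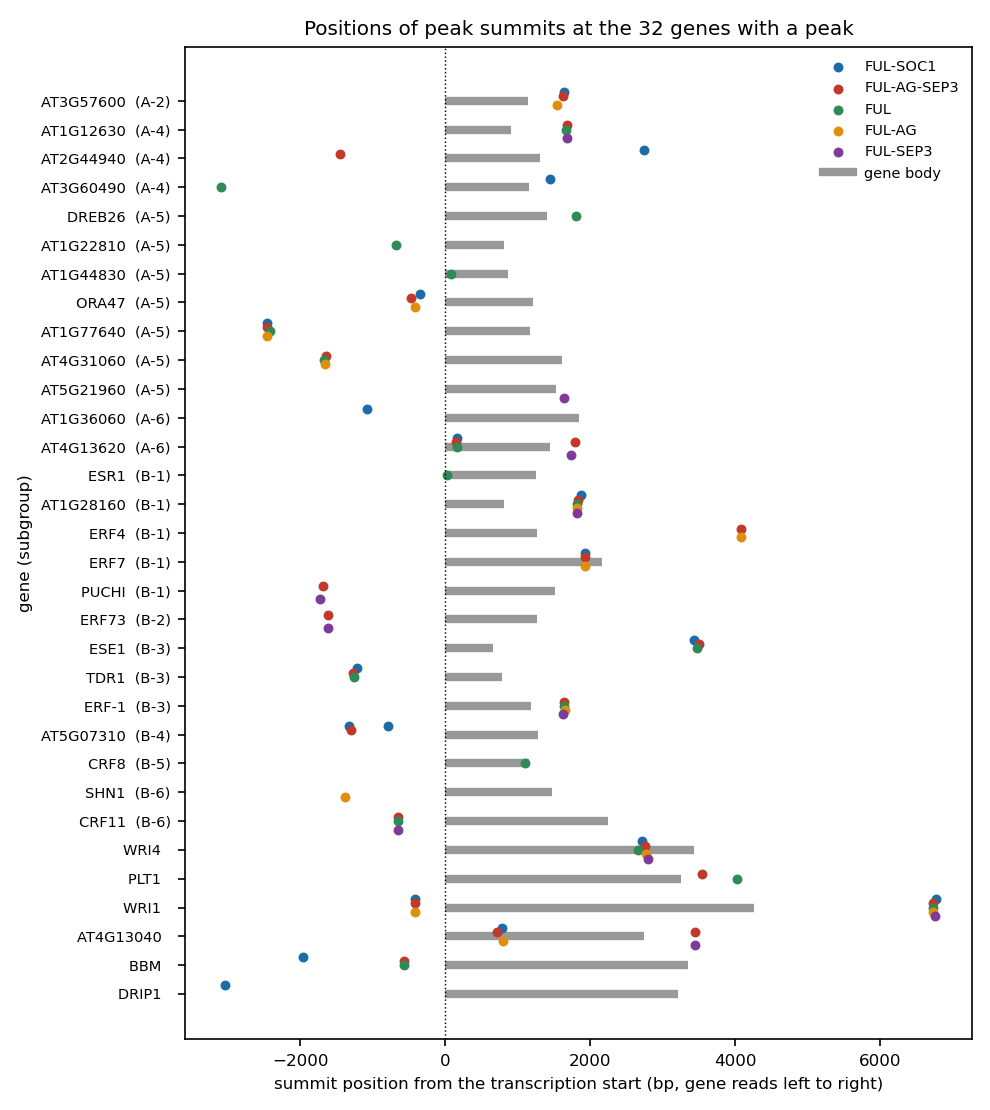
Summits (points, coloured by peak list) at the 32 genes with a peak (rows), by distance from the transcription start (bp, horizontal axis, gene reads left to right); grey bars are gene bodies. Summits of different lists mostly stack at the same place, and few lie within 200 bp of a start.

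The heights of the family's peaks were set beside those of all nuclear peaks of the same list. The medians were close for FUL-SOC1, FUL and FUL-AG. They were higher in the family for FUL-AG-SEP3 and FUL-SEP3, which was not tested. The median fold was 3.10 for the 18 FUL-SOC1 peaks against 3.06 for the list, 3.58 for the 24 FUL-AG-SEP3 peaks against 3.13, 3.99 for the 18 FUL peaks against 3.95, 3.24 for the 13 FUL-AG peaks against 3.23, and 4.19 for the 11 FUL-SEP3 peaks against 3.79. The median FUL-AG-SEP3 peak of the family had 26.7% of its list above it, the median FUL-SEP3 peak 33.6%, and that of the other lists 46.0 to 48.4%. The FUL-SOC1 and FUL-AG-SEP3 peaks overlapped in 12 cases, which is 66.7% of the 18 FUL-SOC1 peaks (all FUL-SOC1 peaks 47.2%) and 50% of the 24 FUL-AG-SEP3 peaks (all 51.2%). Both lists share the input, the DNA library and the FUL protein, so these shares are a description only.

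An exact CArG-box was present in the 200 bp around the summit of 15 of the 84 family peaks (17.9%, interval 11.1 to 27.4%), close to the 16.0% of all nuclear peaks of the 5 lists. In windows of equal length 1000 bp away it was present beside 0 of the 84 peaks, against 0.899% for all peaks. A site with at most 1 mismatch was present in 70 of the 84 peaks (83.3%, interval 73.9 to 89.8%), against 70.7% of all peaks, and in 15 of the windows beside them (17.9%). Peaks of different lists at one place share their sequence, so the number of separate sequences is 39. The intervals over the 84 peaks count such sites more than once and are too narrow. Of the 39 regions, 9 had an exact box and 22 a best site with 1 mismatch. By list, the exact box was found in 4 of 13 FUL-AG peaks (30.8%; all peaks of the list 15.7%), 4 of 18 FUL peaks (22.2%; 20.4%), 4 of 24 FUL-AG-SEP3 peaks (16.7%; 14.3%), 2 of 18 FUL-SOC1 peaks (11.1%; 13.6%) and 1 of 11 FUL-SEP3 peaks (9.09%; 22.3%), and the intervals of the family contained the share of the list in each case. The 7 FUL peaks that overlapped no other list held 4 of these boxes, those of ESR1, DREB26, AT1G22810 and CRF8, where 16.0% of all 588 such FUL peaks hold one. No interval was computed for these 7 peaks, and the difference was not tested. None of the 6 FUL-SOC1 peaks that overlapped no other list held an exact box (all 2206 such peaks 10.1%), and neither did the 3 regions present in all lists, where 26.5 to 27.3% of all such peaks hold one.

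**Figure D5:**
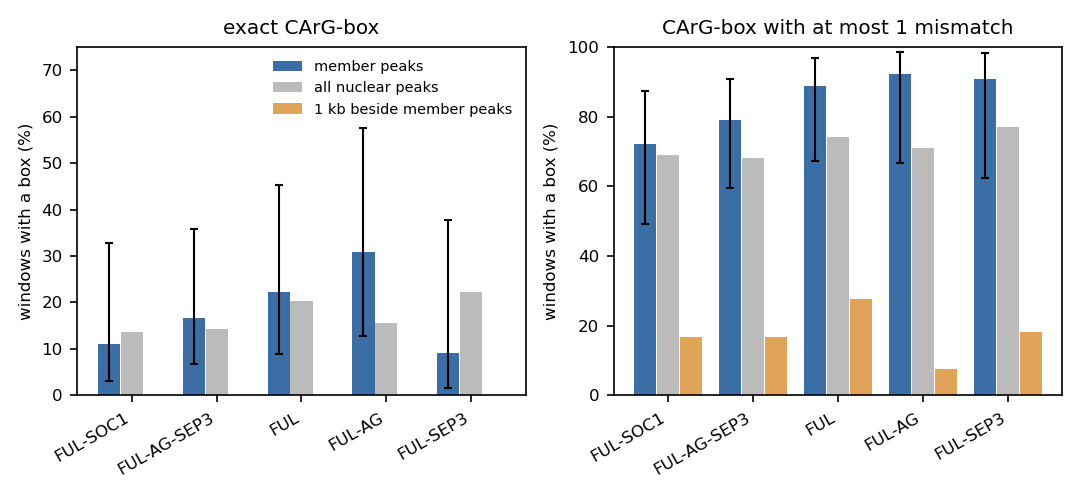
Share of 200 bp summit windows with an exact CArG-box (left) or a site with at most 1 mismatch (right), in %, by peak list. Blue bars are the family's peaks with 95% Wilson intervals, grey bars all nuclear peaks and orange bars windows 1 kb beside the family's peaks, which held no exact box.

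The genes of ethylene signalling and synthesis, whose products act before the ERF proteins, were counted in the same way. Of 16 genes of ethylene perception and signalling, 9 had a peak (FUL-SOC1 7, FUL-AG-SEP3 6, FUL 5, FUL-AG 4 and FUL-SEP3 4). This is 56.3% of the list, against 43.9% of all genes for any list and 28.7, 27.1, 17.0, 18.1 and 9.22% for the single lists in the same order. No interval was computed for these 16 genes, and the difference from all genes was not tested. Peaks in 4 or more lists were found at EIL1, a transcription factor that activates ERF1, at EBF2, an F-box protein that removes EIN3 and EIL1, at EIN2, the central signal carrier, and at EIN5. The FUL peak of EIN5 lay in an intron 4576 bp after the start, apart from its FUL-SOC1, FUL-AG-SEP3 and FUL-SEP3 peaks 441 to 522 bp upstream. At EBF2, beyond the gene end in an intron of its neighbour AT5G25340, the folds were 5.33 for FUL, 4.89 for FUL-AG (4.69% of the list higher), 4.03 for FUL-AG-SEP3 and 2.84 for FUL-SOC1. At EIN2 the FUL-AG-SEP3, FUL-AG and FUL-SOC1 peaks lay 1143 to 1168 bp upstream with folds of 4.40, 4.09 and 3.77, and the FUL-SEP3 peak of 4.48 lay at a separate place 3074 bp upstream, in a 3′ UTR. Of 14 genes of ethylene synthesis, 6 had a peak (42.9%; all genes 43.9%) and none had peaks in 4 lists or more.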

How the data were processed

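DAP-seq reads of the FUL mixtures were processed by the authors. They used Trim Galore for trimming, HISAT2 for mapping to TAIR10, MACS2 for narrow peaks and ChIPseeker for annotation (versions not given in the sources used here). The 3 replicates of a condition were combined before peak calling. The deposited lists hold 4831 (FUL-SOC1), 4457 (FUL-AG-SEP3), 2590 (FUL), 2837 (FUL-AG) and 1390 (FUL-SEP3) peaks. The deposited fold enrichment is the ratio of pileup to local background at the summit, and the authors' −log10 p-value and −log10 q-value come from MACS2, with every q below 0.05. The deposited score, 10 times the −log10 q, was not used. No depth per sample is in the files, so precision is given as 95% Wilson intervals, which cover counting error only. Unused columns with values per sample numbered 0.

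The genes were found by product name in the RefSeq annotation of TAIR10.1, whose nuclear coordinates are those of TAIR10, with 37899 annotated genes. Mitochondrial peaks (11 to 23 per list) were left out of gene counts. A grouping by protein sequence was planned, but no protein table was used here, and subgroups were read from the curated gene notes instead. CArG-boxes were scored on both strands as mismatches to the consensus in 200 bp around the summit, with control windows 1000 bp to the right. A BLAST search (version 2.17.0, at least 90% identity over 50% of the length) found a near-identical copy for 0 of the 39 regions. Python 3.11.15, pandas 2.3.3 and SciPy 1.17.1 were used. On simulated data, 90 of 90 planted genes among 300 were found with 0 false calls, and 200 of 200 planted boxes were scored correctly.

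Genes are described if they had peaks in all lists, the 3 highest folds of a list, the 3 highest folds of FUL-SOC1 or FUL-AG-SEP3 without the other, the highest fold among genes of 1 list alone, or 3 or more regions (none did), together with named floral and meristem genes. The other genes with a peak are named so that each of the 32 is accounted for, and those without a peak that are named were chosen after seeing the values. The family, the gene lists and the rule were chosen with earlier results of these data known. The alternatives tried were other gene windows, assignment to the nearest transcription start, stricter thresholds, lists of equal size, other overlaps, other summit windows and a looser box.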

Additional observations from a re-analysis of the deposited data

How the results depend on the processing

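Of 63 values recomputed under other settings, 40 stayed within the limits (1.5 times for counts) and 23 moved. The gene body alone gave 4 genes with a FUL-SOC1 peak (17 in the main count), 4 with a FUL-AG-SEP3 peak (22), 5 with a FUL peak (19), 3 with a FUL-AG peak (12), 1 with a FUL-SEP3 peak (11), 7 with a peak in any list (32) and 1 in all lists (3). With 1 kb flanks, FUL-SOC1 had 11 genes and FUL-AG-SEP3 13. With 5 kb flanks, FUL-SOC1 had 31 genes, FUL-AG-SEP3 34, FUL-AG 24 and FUL-SEP3 17, and 5 genes were in all lists. The 1000 peaks with the smallest p of each list gave 4 (FUL-SOC1), 8 (FUL-AG-SEP3), 6 (FUL) and 5 (FUL-AG) genes, and 14 in any list. Assignment to the nearest start gave 14 FUL-SOC1 genes, 11 FUL genes, 7 FUL-SEP3 genes and 1 gene in all lists. A smaller window or list gives fewer genes by construction. The FUL-SOC1 share was above that of all genes with the nearest start (14.6% against 13.6%) and below it with the other windows and thresholds, for example 11.5% against 16.3% with 1 kb, 32.3% against 39.4% with 5 kb, 4.17% against 9.29% in the gene body and 4.17% against 6.95% with equal lists. For FUL-AG-SEP3 the order turned with the nearest start (17.7% against 12.6%), with equal lists (8.33% against 6.82%) and, narrowly, at q below 0.0001 (22.9% against 22.6%), and for FUL-AG with the nearest start (10.4% against 8.14%). For FUL and FUL-SEP3, above all genes in the main count, it turned in the gene body (5.21% against 5.55%, and 1.04% against 2.56%) and for FUL also with equal lists (6.25% against 6.84%). The share of peaks with a CArG-box was 17.9% for the exact box and 83.3% with 1 mismatch allowed. No paired analysis was possible because the replicates were combined before peak calling, and for the same reason no replicate could be left out. The number of reads behind each list limits which weak peaks were called and is not in the files.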

Other observations

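Several well-known AP2/ERF genes carry product names outside the selection. Of 25 such genes listed, 17 had a peak in 1 or more lists (FUL-SOC1 13, FUL-AG-SEP3 11, FUL 10, FUL-AG 7 and FUL-SEP3 6), which is 68.0% against 43.9% of all genes for any list and 28.7, 27.1, 17.0, 18.1 and 9.22% for the single lists in that order. Of these, 7 had peaks in 4 or 5 lists, namely CBF2, CBF3, CBF4, CRF5, RAP2.4, TEM1 and AIL5. The peaks of RAP2.4 were at 2 places, with the FUL peak 1310 bp upstream of the start. Its FUL-SOC1, FUL-AG-SEP3 and FUL-SEP3 peaks, with folds of 2.15, 2.10 and 2.16, lay 3304 to 3318 bp after the start. Of the peaks in these lists, 97.2 to 99.1% were higher. The 25 genes were chosen by name with earlier results known, so their count is a description. CBF2 and CBF3, neighbouring cold regulators, shared the same peaks over the end of CBF2, with folds of 7.90 for FUL (5.87% of the list higher), 6.46 for FUL-SEP3 (3.24% higher), 4.24 for FUL-AG-SEP3 and 3.56 for FUL-AG, and no FUL-SOC1 peak.

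The cytokinin response factor gene CRF5 was in all 5 lists, with folds of 5.61 for FUL, 4.45 for FUL-SOC1 (2.96% of the list higher), 3.92 for FUL-AG-SEP3 and 3.72 for FUL-AG at summits 1524 to 1686 bp upstream. TEM1, a repressor of flowering, had folds of 6.16 for FUL, 3.82 for FUL-AG-SEP3, 3.59 for FUL-SEP3 and 3.15 for FUL-SOC1 at 2698 to 2723 bp upstream. AIL5, a relative of ANT, was also in all 5 lists, with a FUL fold of 5.07 at 1944 bp upstream, and AIL6 and AIL7 had peaks in 1 and 3 lists.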
